A study of Mus musculus with 24 samples.

Results

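The genes for 10 endothelial and sinusoidal transcription factors were followed, chosen by name out of the 25361 genes in the table of liver RNA values. They are the ETS factor genes *Erg* and *Fli1*, the SOXF genes *Sox7*, *Sox17* and *Sox18*, the sinusoidal factor genes *Gata4*, *Maf* and *Tfec*, the venous factor gene *Nr2f2*, and *Tal1*. The rule was the gene name alone, and each of the 10 names matched 1 row.

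RNA was sequenced from 24 libraries of mouse livers at embryonic day (E) 12.5, in 2 cell fractions. LSECs are the cells that CD146 MicroBeads retained, CD146 being an endothelial surface molecule encoded by *Mcam*, and non-EC cells are those that passed through. Each fraction holds 4 genotypes with 3 embryos each. Control embryos had no Cre and carried floxed alleles of both *Brg1* and *Chd4*. *Chd4-ECko* embryos were Brg1 fl/+, Chd4 fl/fl and VE-cadherin-Cre+, *Brg1-ECko* embryos were Brg1 fl/fl, Chd4 fl/+ and VE-cadherin-Cre+, and *Brg1/Chd4-ECdko* embryos were Brg1 fl/fl, Chd4 fl/fl and VE-cadherin-Cre+. Each single mutant was therefore also heterozygous for the other remodeler in Cre-active cells, the background was mixed and the sexes were pooled. BRG1 and CHD4 are ATPases of chromatin remodeling complexes, and VE-cadherin-Cre acts in endothelial cells and in part of the blood lineage. The study asked how endothelial loss of each remodeler, or of both, changes liver transcription.

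Endothelial identity is held by a small network of transcription factors. ETS factors bind a GGAA core in the enhancers of most endothelial genes, SOXF factors act in vessel growth and in arterial and lymphatic programs, and NR2F2 (COUP-TFII) is known for venous identity. In the liver, GATA4 is required in the endothelium for sinusoidal rather than continuous capillaries, and MAF and TFEC are enriched in sinusoidal endothelium. TAL1 is shared between the endothelial and blood lineages and drives erythroid differentiation, so that in a fetal liver full of blood precursors its RNA is not an endothelial mark alone.

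Between 12746 and 13219 genes reached 1 TPM (transcripts per 1000000) in LSEC libraries, and between 11450 and 11973 in non-EC libraries. All TPM columns sum to 1000000, so they do not hold the read depth of each library, and the study's methods give a single nominal depth for all. *Chd4* was listed at 246 to 285 TPM in control LSECs and at 168.5 to 252 TPM in LSECs labelled *Chd4-ECko*, and at 242 to 256 TPM in those labelled *Brg1/Chd4-ECdko*. *Smarca4*, the gene for BRG1, was listed at 134 to 161 TPM in control LSECs and at 111 to 157 TPM in LSECs labelled *Brg1-ECko*, and at 117 to 151 TPM in those labelled *Brg1/Chd4-ECdko*. All 4 mutant ranges overlap the control range. A value for a whole gene also counts reads outside the floxed exons and from cells without Cre, so it does not check the labels, and genotype names below are those of the labels. By qRT-PCR, the study reports lower *Chd4* and *Brg1* transcripts in the matching mutants, in LSECs isolated with LYVE1 at E12.5.

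The defining endothelial markers were present in the CD146+ fraction. *Cdh5* (VE-cadherin) ranged from 194 to 368 TPM in the 12 LSEC libraries against 3.33 to 13.4 TPM in the 12 non-EC libraries, and *Lyve1*, a sinusoidal receptor, from 230.0 to 630 TPM against 0.415 to 5.89 TPM. The fraction was not endothelial alone. The mesenchymal collagen *Col1a1* ranged from 204 to 461 TPM in LSECs against 4.28 to 24.7 TPM in non-EC cells, and the mesothelial *Wt1* from 19.7 to 48.9 TPM against 0.278 to 1.48 TPM. All 12 mesenchymal and stellate markers, 6 of 7 tested mesothelial markers and 7 of 12 macrophage markers were higher in control LSECs than in control non-EC cells. Of all genes tested, 31.3% were. Only 10 of these mesenchymal and stellate markers and 3 of the mesothelial markers passed the filter on low values within the non-EC libraries. The others passed it only through the LSEC libraries, so any call of theirs follows from the filter. All 12 macrophage markers passed it in non-EC cells. *Brg1-ECko* LSEC replicate 1 stands apart, with a summed level of 12 hepatoblast markers of 28743 TPM against 3604 to 8274 TPM in the other 11 LSEC libraries. In bulk RNA of this kind, fewer cells of a type and less RNA per cell cannot be told apart.

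The start regions of the members were looked up because 9 of the 10 genes share one pattern between the fractions and *Tal1* has the opposite one. RefSeq (GRCm38.p6) windows were found for 4 members. Shown are the 250 bases before 1 annotated start of each, 5′ to 3′ on the gene's own strand, and capitals mark a match on either strand to a GATA or an ETS motif. The GATA motif was AGATAA. As the ETS motif, GGAAGT was searched. The *Erg* window is the one of its 3 that holds a match, at chr16:95459349-95459598 (minus strand). The *Tfec* window is chr6:16898442-16898691 (minus strand), the *Nr2f2* window chr7:70366747-70366996 (minus strand), and the *Tal1* window, one of 2, chr4:115056176-115056425 (plus strand).
Erg: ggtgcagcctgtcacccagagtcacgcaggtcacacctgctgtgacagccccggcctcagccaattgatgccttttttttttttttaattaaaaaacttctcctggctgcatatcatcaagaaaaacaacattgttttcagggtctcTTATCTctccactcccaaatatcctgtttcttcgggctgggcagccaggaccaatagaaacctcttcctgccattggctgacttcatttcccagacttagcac
Tfec: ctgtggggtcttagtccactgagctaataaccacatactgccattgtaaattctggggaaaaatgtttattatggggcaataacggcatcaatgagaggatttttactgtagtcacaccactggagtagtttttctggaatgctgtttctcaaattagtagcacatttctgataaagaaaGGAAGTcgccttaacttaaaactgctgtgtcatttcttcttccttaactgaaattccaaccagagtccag
Nr2f2: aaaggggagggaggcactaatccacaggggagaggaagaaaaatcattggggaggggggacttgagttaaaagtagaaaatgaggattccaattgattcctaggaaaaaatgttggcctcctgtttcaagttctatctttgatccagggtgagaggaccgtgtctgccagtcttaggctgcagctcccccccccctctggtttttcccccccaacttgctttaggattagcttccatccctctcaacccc
Tal1: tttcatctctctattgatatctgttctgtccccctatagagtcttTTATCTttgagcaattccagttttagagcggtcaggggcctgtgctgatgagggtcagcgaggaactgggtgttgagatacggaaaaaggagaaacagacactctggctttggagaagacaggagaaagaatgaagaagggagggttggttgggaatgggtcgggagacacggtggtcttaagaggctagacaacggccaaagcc
The *Erg* and *Tal1* windows each hold 1 match to AGATAA, read as its reverse complement. The other 2 *Erg* windows and the other *Tal1* window hold none, so that 2 of the 7 windows of members have a match. Of all 32851 windows of this length in the table, 9.99% do, and since the windows shown were picked for their matches, nothing is read from that share. The *Tfec* window holds 1 match to GGAAGT, found in 19.7% of windows, and the *Nr2f2* window holds neither AGATAA nor GGAAGT. Other forms of the GATA and ETS motifs, such as the GGAA core alone, were not searched. The ACAAT core of SOX factors occurs once each in the *Erg* and *Tfec* windows and in 27.7% of all windows. The E-box CANNTG, bound by factors such as TAL1, occurs 2 times in the *Erg* window and 1 time in the *Nr2f2* window, with 66.2% of all windows holding it. These matches are a description of the letters only.

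Which of the 10 factor genes mark the LSEC fraction was asked first, in controls. In control LSECs, *Nr2f2* had the highest level with 169.6 ± 9.45 TPM (SD, n = 3), followed by *Maf* with 122 ± 4.84 TPM and *Gata4* with 87.2 ± 12.8 TPM. *Fli1* had 54.25 ± 3.19 TPM, *Erg* 43.5 ± 6.98 TPM and *Sox18* 41.3 ± 9.31 TPM. *Tal1* had 22.5 ± 4.15 TPM, *Tfec* 20.5 ± 1.52 TPM, *Sox7* 13.4 ± 1.60 TPM and *Sox17* 9.44 ± 2.001 TPM. Only 2 neighbours in this order overlap in their libraries, *Erg* with *Sox18* and *Tal1* with *Tfec*. TPM are per transcript length, so these levels can be set beside each other. The SOXF gene with the highest level, *Sox18*, thus stood above both of its relatives in every control LSEC library.

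The order was different in control non-EC cells. *Tal1* led with 141 ± 18.6 TPM, and *Fli1* followed with 27.4 ± 9.23 TPM. *Maf* had 9.76 ± 4.34 TPM, *Erg* 9.38 ± 1.38 TPM and *Nr2f2* 6.83 ± 1.49 TPM, with overlapping libraries. *Tfec* had 3.95 ± 1.77 TPM and *Gata4* 1.175 ± 0.672 TPM, and *Sox18* was at 0.198 to 0.824 TPM. *Sox7* was listed at 0 in 1 of the 3 libraries and *Sox17* in 2 of 3, with the highest values at 0.104 and 0.111 TPM.

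**Figure D1:**
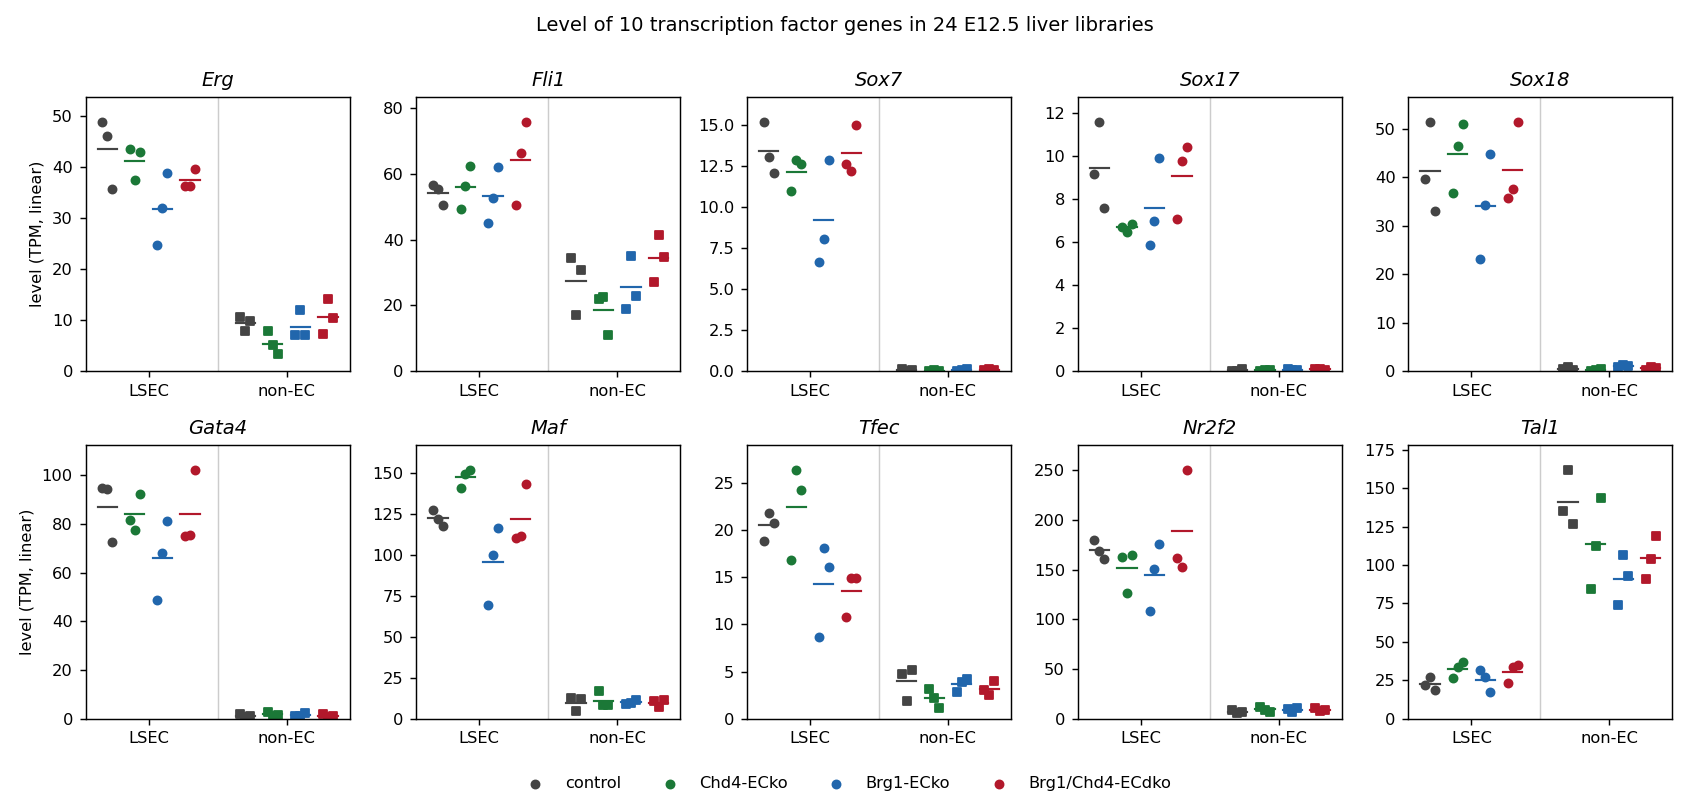
Level in TPM (linear axis from 0, a scale of its own for each gene) of the 10 factor genes in 12 LSEC libraries (circles) and 12 non-EC libraries (squares), coloured by genotype, with a line at each group mean of 3. *Tal1* is the one gene whose non-EC libraries, at 73.9 TPM and above, all exceed its LSEC libraries, at 36.9 TPM and below.

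All 10 members differed between control LSECs and control non-EC cells, also with the added threshold of a log2 fold change above 1 that the study used (32.7% of genes), against a background of 67.1% of 13775 genes called in this comparison, 31.3% higher and 35.8% lower in LSECs. Fold changes are differences of mean log2(TPM + 1), which understates the change of genes with low values, and all adjusted p-values are two-sided from limma with Benjamini-Hochberg adjustment over all genes tested. Of the 10, 9 were higher in LSECs and *Tal1* was lower, and no pair of groups overlapped, as for 75.1% of genes. These counts include *Sox7*, *Sox17* and *Sox18*, which passed the filter on low values only through the LSEC libraries, so their calls were fixed by it. Of the members without this limit, *Gata4*, *Nr2f2*, *Maf*, *Tfec*, *Erg* and *Fli1* were higher and *Tal1* was lower. Over all genotypes, each of the 12 LSEC libraries was above each of the 12 non-EC libraries for the 9 genes (22.4% of genes) and below for *Tal1* (15.3% of genes). Without mitochondrial genes the split of all called genes moved from 46.7% to 61.0% higher in LSECs, and the 10 calls stayed.

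The sinusoidal and venous factor genes come first. *Gata4* (ENSMUSG00000021944; GRCm39 chromosome 14, 63436362 to 63509141, minus strand) was listed at 94.9, 94.3 and 72.4 TPM in control LSEC replicates 1 to 3 and at 1.93, 0.649 and 0.944 TPM in control non-EC cells, a log2 fold change of 5.37 ± 0.24 (SE; adjusted p = 1.01e-13). *Nr2f2* (ENSMUSG00000030551; chromosome 7, 70001692 to 70016519, minus strand) was listed at 179, 169 and 161 TPM against 8.19, 5.24 and 7.04 TPM (4.46 ± 0.22, adjusted p = 4.67e-13). *Maf* (ENSMUSG00000055435; chromosome 8, 116409632 to 116434579, minus strand) was listed at 127, 122 and 117 TPM against 12.8, 4.79 and 11.7 TPM (3.61 ± 0.28, adjusted p = 3.59e-10). For these 3 genes the groups were far apart, with the lowest LSEC library several times the highest non-EC library. *Tfec* (ENSMUSG00000029553; chromosome 6, 16833372 to 16898440, minus strand), a bHLH factor of the MiT family, was listed at 18.9, 21.9 and 20.8 TPM against 4.78, 1.92 and 5.16 TPM (2.19 ± 0.29, adjusted p = 1.22e-06).

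The SOXF genes had the lowest levels in non-EC cells. *Sox18* (ENSMUSG00000046470; chromosome 2, 181311629 to 181313438, minus strand) was listed at 39.7, 51.3 and 32.9 TPM in control LSECs and at 0.423, 0.824 and 0.198 TPM in control non-EC cells. *Sox7* (ENSMUSG00000063060; chromosome 14, 64181006 to 64188352, plus strand) was listed at 15.2, 13.04 and 12.1 TPM in control LSECs. *Sox17* (ENSMUSG00000025902; chromosome 1, 4561151 to 4567784, minus strand) was listed at 9.16, 11.6 and 7.60 TPM in control LSECs. Over the 12 non-EC libraries of all genotypes, *Sox7* was listed at 0 in 4 and never above 0.119 TPM, and *Sox17* at 0 in 3 and never above 0.111 TPM. These 3 genes passed the filter on low values only through the LSEC libraries, so their calls follow from it. The size of their log2 fold changes is set by the pseudocount, at 4.83 for *Sox18*, 3.75 for *Sox7* and 3.32 for *Sox17* with 1 TPM and at 6.28, 6.40 and 6.197 with 0.1 TPM.

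The ETS factor genes were shared by both fractions. *Erg* (ENSMUSG00000040732; chromosome 16, 95160028 to 95387452, minus strand) was listed at 48.8, 46.1 and 35.6 TPM in control LSECs and 10.5, 7.85 and 9.76 TPM in control non-EC cells (2.10 ± 0.24, adjusted p = 2.09e-07). *Fli1* (ENSMUSG00000016087; chromosome 9, 32333500 to 32454157, minus strand) was listed at 56.7, 55.5 and 50.6 TPM against 34.5, 17.0 and 30.8 TPM (1.02 ± 0.27, adjusted p = 0.00231). The *Fli1* groups did not overlap, but its gap was the smallest of the 10 and was 0.72 without control non-EC replicate 2. FLI1 is also a factor of megakaryocytes, and the summed level of 10 megakaryocyte markers was 1058 to 1683 TPM in control non-EC cells against 352 to 394 TPM in control LSECs. Across the 12 non-EC libraries, Pearson's r with the megakaryocyte list was 0.529 for *Fli1* and 0.384 for *Erg*. Neither passed the permutation test of r (adjusted p = 0.212 and 0.423). Within genotypes r was 0.740 and 0.483. The part of megakaryocytes in the *Fli1* and *Erg* differences between the fractions was not tested.

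*Tal1* (ENSMUSG00000028717; chromosome 4, 114913623 to 114928952, plus strand) had the opposite direction. It was listed at 22.05, 26.9 and 18.6 TPM in control LSECs and 135, 162 and 126 TPM in control non-EC cells, with no overlap (-2.60 ± 0.22, adjusted p = 2.45e-09). Of the 11 erythroid markers in the table, 11 were lower in control LSECs, against 35.8% of all genes tested. Their summed level was 133 to 311 TPM in control LSECs against 1593 to 2591 TPM in control non-EC cells. *Lmo2* and *Lyl1*, whose products work in complexes with TAL1 or resemble it, had log2 fold changes of -2.33 (adjusted p = 2.63e-10) and -2.15 (adjusted p = 6.57e-10).

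The non-EC level as a share of the LSEC level, over 12 libraries each, ranged from 0.457% for *Sox7* to 408% for *Tal1*, with a median of 6.76%. It was 0.665% for *Sox17*, 1.49% for *Sox18*, 1.72% for *Gata4*, 5.19% for *Nr2f2*, 8.33% for *Maf*, 18.3% for *Tfec*, 22.1% for *Erg* and 46.5% for *Fli1*. The median share was 2.87% for 15 pan-endothelial genes, 2.85% for 15 sinusoidal genes and 21.5% for 26 other endothelial transcription factor genes. It was 3.47% for 12 mesenchymal and stellate markers, so that a low share in non-EC cells was not particular to endothelial genes. *Nr2f2*, *Maf* and *Gata4* are known to be expressed in liver mesenchyme or mesothelium as well, and what these cells add to the LSEC values was not tested.

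**Figure D2:**
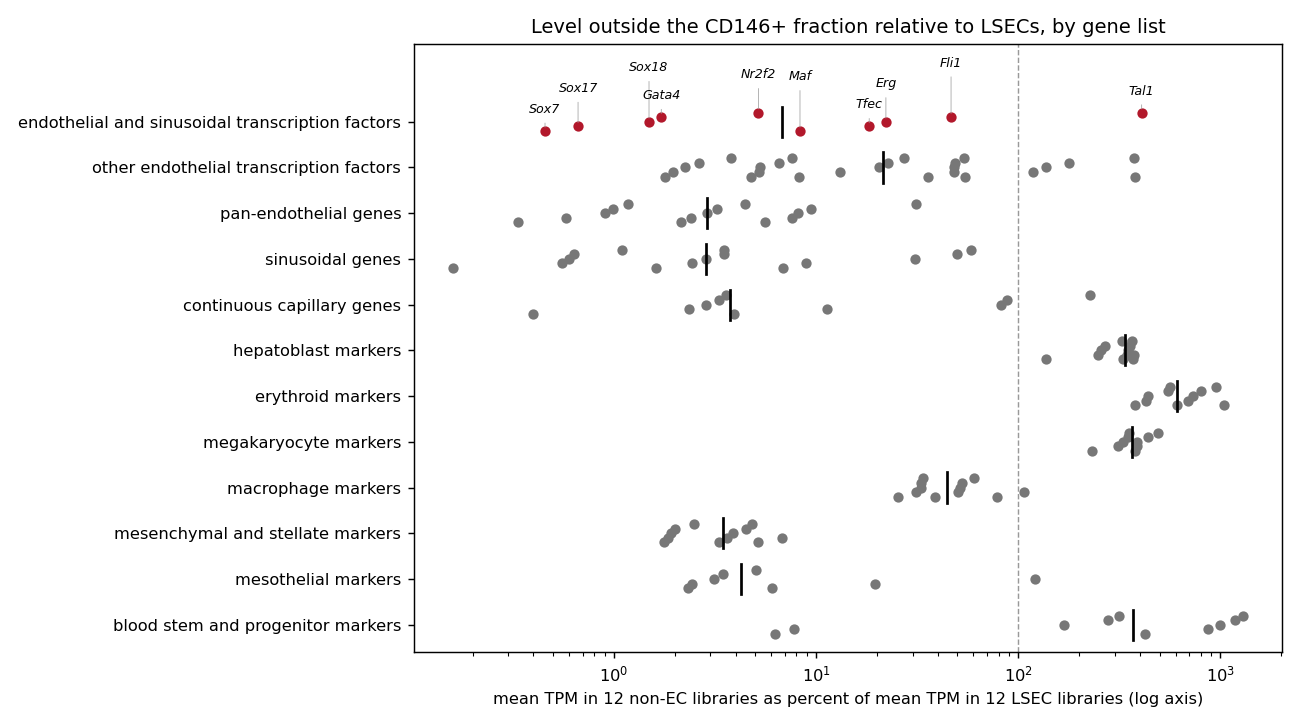
Mean TPM over 12 non-EC libraries as a percent of mean TPM over 12 LSEC libraries (log axis), 1 point per gene, by gene list, with a black line at the median of each list and a dashed line at 100. The named red points are the 10 factor genes, from *Sox7* at 0.457% to *Tal1* at 408%.

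Of 26 other endothelial transcription factor genes, 20 were higher and 4 lower in control LSECs, beside 31.3% and 35.8% of all genes tested. Their median log2 fold change was 2.05, beside 3.47 for the 10 members and -0.09 for all genes tested. The median of the members includes the SOXF genes, whose calls follow from the filter on low values. Among the 26, *Foxc1*, *Foxc2*, *Hey1*, *Hey2*, *Bcl6b* and *Nr2f1* likewise passed this filter only through the LSEC libraries. Any call of these genes follows from it, and they enter the count and the median. The ETS gene *Ets1* had the highest level of the 26 in control LSECs with 252 ± 23.98 TPM (5.55, adjusted p = 7.88e-14), above each of the 10 members. *Ets2* had 121 ± 13.9 TPM (2.40, adjusted p = 1.21e-12), *Elk3*, also an ETS gene, 90.2 ± 11.3 TPM (3.67, adjusted p = 7.98e-12), and the homeobox gene *Meis2* 68.1 ± 15.2 TPM (4.22, adjusted p = 1.98e-12). The 4 lower genes were *Lmo2*, *Lyl1*, *Gata2* and *Etv6*, which blood cells also use and which were named after their values were seen.

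Whether loss of CHD4 changed the factor genes in LSECs was asked next. In *Chd4-ECko* LSECs 0 of 10 members passed the adjusted threshold by limma, against 0.707% of 13444 genes, and 1 of 10 had an unadjusted p under 0.05, as did 6.49% of genes. That gene was *Tal1*, listed at 26.5, 33.3 and 36.9 TPM in *Chd4-ECko* LSECs against 22.05, 26.9 and 18.6 TPM in controls (log2 fold change 0.50, 95% interval 0.01 to 0.99, adjusted p = 0.751). The groups overlap in 1 library. The summed level of the erythroid markers was 266 to 429 TPM in *Chd4-ECko* LSECs against 133 to 311 TPM in controls, with 11 of 11 markers above 0 in log2 fold change. The part of these markers in the *Tal1* value was not tested.

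*Sox17* and *Maf* had groups that did not overlap, as 12.3% of all genes did. *Sox17* was listed at 6.69, 6.48 and 6.84 TPM in *Chd4-ECko* LSECs against 9.16, 11.6 and 7.60 TPM (-0.43, interval -0.87 to 0.01, adjusted p = 0.801). *Maf* was listed at 141, 149 and 152 TPM against 127, 122 and 117 TPM (0.27, interval -0.09 to 0.63, adjusted p = 1.00). For the other 7 members the groups overlapped and the log2 fold changes lay between -0.17 for *Nr2f2* and 0.12 for *Sox18*. The interval was -0.45 to 0.35 for *Gata4*, -0.42 to 0.29 for *Erg* and -0.31 to 0.39 for *Fli1*, so that a 2-fold change of these 3 genes lies outside the interval. In the same libraries 12 of 12 macrophage markers were above 0, with a median of 0.95.

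In *Brg1-ECko* LSECs 0 of 10 members passed the adjusted threshold by limma, against 0.0223% of genes, while 5 of 10 had an unadjusted p under 0.05, against 9.68% of genes. All 5 were lower, and 9 of the 10 members were below 0 with a median log2 fold change of -0.34, beside 0.08 for all genes. *Sox7* was listed at 6.66, 8.03 and 12.9 TPM against 15.2, 13.04 and 12.1 TPM in controls (-0.54, interval -0.97 to -0.12, adjusted p = 0.426). *Erg* was listed at 24.7, 31.9 and 38.7 TPM against 48.8, 46.1 and 35.6 TPM (-0.45, interval -0.80 to -0.10, adjusted p = 0.426). Both groups overlap through *Brg1-ECko* replicate 3.

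*Tfec* was listed at 8.65, 18.1 and 16.1 TPM in *Brg1-ECko* LSECs against 18.9, 21.9 and 20.8 TPM (-0.55, adjusted p = 0.484). *Maf* was listed at 69.6, 100.03 and 116 TPM against 127, 122 and 117 TPM (-0.39, adjusted p = 0.480). Neither pair of groups overlapped, as was so for 14.6% of genes. *Gata4* was listed at 48.7, 68.2 and 81.1 TPM against 94.9, 94.3 and 72.4 TPM (-0.42, adjusted p = 0.497), with overlap.

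In each of these 5 genes, and in *Nr2f2*, *Sox18*, *Sox17* and *Fli1*, replicate 1 was the lowest *Brg1-ECko* LSEC library, and this is the library with the high hepatoblast sum. Without it the log2 fold changes were -0.36 for *Sox7*, -0.29 for *Erg*, -0.25 for *Tfec*, -0.22 for *Gata4* and -0.18 for *Maf*, each with an adjusted p of 1.00. The pan-endothelial and sinusoidal genes lay on the same side, with 0 of 15 and 0 of 15 above 0 and medians of -0.48 in both lists. Of 10 continuous capillary genes 4 were above 0 (median -0.20), and of the 26 other endothelial transcription factor genes 9 were (median -0.07). In contrast, 12 of 12 hepatoblast markers were above 0 (median 1.1). In each of these lists 0 genes passed the adjusted threshold. Relative to the mean of the pan-endothelial genes in each library the values were -0.08 for *Sox7*, 0.01 for *Erg*, -0.09 for *Tfec*, 0.05 for *Gata4* and 0.08 for *Maf*, which reverses the direction of 3 of the 5.

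In *Brg1/Chd4-ECdko* LSECs 0 of 10 members passed the adjusted threshold by limma, against 0.87% of genes, and 1 had an unadjusted p under 0.05, against 12.1% of genes. This was *Tfec*, listed at 10.8, 14.9 and 14.96 TPM against 18.9, 21.9 and 20.8 TPM in controls (-0.58, interval -1.09 to -0.06, adjusted p = 0.360), with no overlap, as for 23.1% of genes. It was also lower than in *Chd4-ECko* LSECs, at 16.8, 26.5 and 24.3 TPM (-0.68, interval -1.20 to -0.17, adjusted p = 0.459), again with no overlap, as for 15.9% of genes. Against *Brg1-ECko* LSECs its difference was -0.03 (interval -0.54 to 0.49). The *Tfec* groups of both genotypes with Brg1 fl/fl were thus each below control, in comparisons that share the control libraries, and neither passed the adjusted threshold.

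The other 9 members each had an interval that spans 0 in the double mutant. *Tal1* was the farthest of them from control, at 22.9, 33.7 and 34.8 TPM (0.41, interval -0.08 to 0.90, adjusted p = 0.468), with overlap. *Fli1* was listed at 50.45, 66.5 and 75.8 TPM (0.22, interval -0.13 to 0.57). *Erg* was listed at 36.2, 36.3 and 39.5 TPM (-0.20, interval -0.56 to 0.15) and *Gata4* at 74.9, 75.6 and 102 TPM (-0.05, interval -0.45 to 0.35). *Sox7* (-0.02), *Sox17* (-0.05), *Sox18* (0.01) and *Maf* (-0.02) had the log2 fold changes nearest to 0 beside *Gata4*. *Nr2f2* was listed at 162, 153 and 251 TPM, and its replicate 3 was the highest of the 12 LSEC libraries. The same library was the highest for *Fli1*, *Gata4* and *Sox18* and had the highest summed level of mesenchymal and stellate markers, 2259 TPM. *Sox17*, at 7.05, 9.77 and 10.4 TPM, did not overlap with *Chd4-ECko* LSECs (0.38, interval -0.06 to 0.82, adjusted p = 0.523).

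Direct comparison of the double mutant with *Chd4-ECko* LSECs called 0 of 10 members (0.0372% of genes), with 1 member at an unadjusted p under 0.05 (10.4% of genes), and with *Brg1-ECko* LSECs 0 of 10 (0.0967% of genes), with 2 such members (6.1% of genes). The 2 were *Sox7* (0.53, adjusted p = 0.615) and *Maf* (0.37, adjusted p = 0.797). Whether the double mutant differs from the sum of the 2 single mutants was tested as an interaction. Of the 10 members 0 passed, as did 0 of 13444 genes (0%), and 2 members had an unadjusted p under 0.05 beside 560 genes (4.17%). These were *Sox17* (0.67, interval 0.05 to 1.29) and *Sox7* (0.66, interval 0.06 to 1.26), with an adjusted p of 0.995 each.

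**Figure D3:**
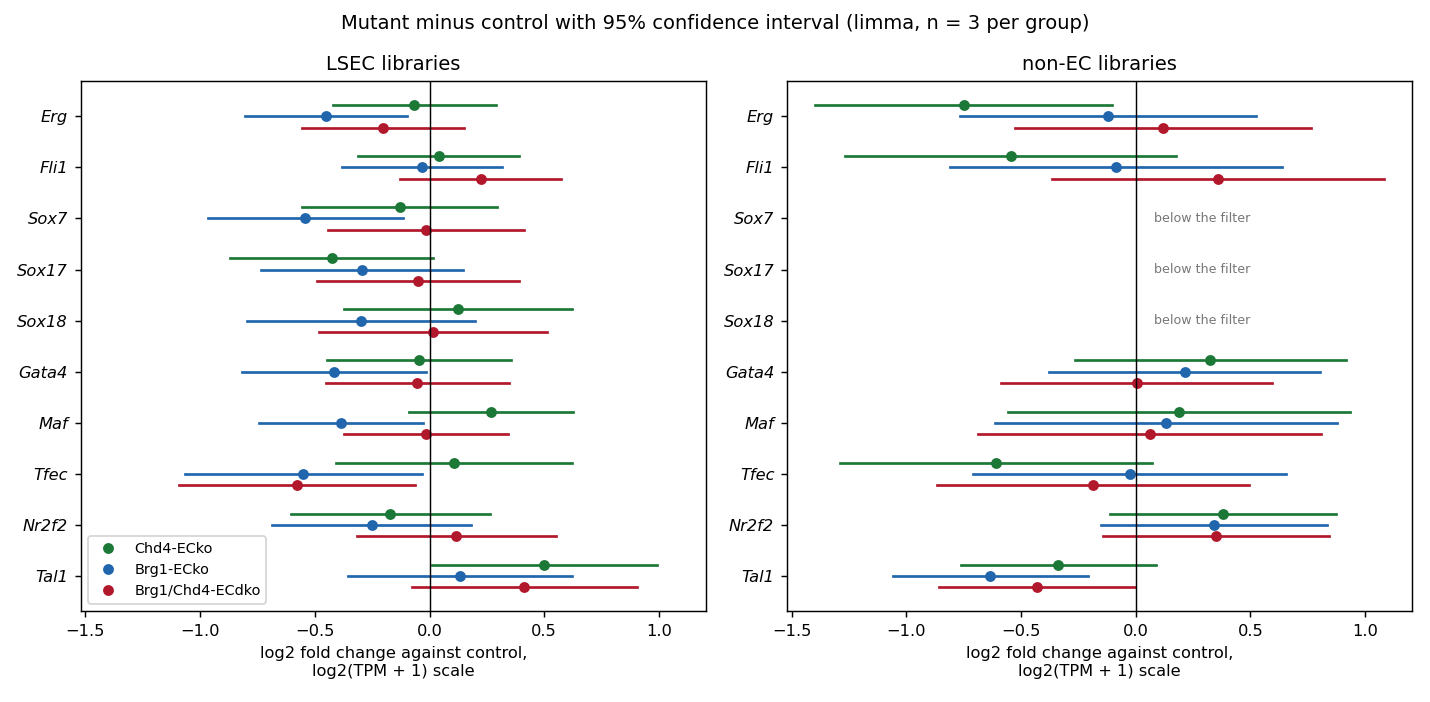
Log2 fold change of each mutant against control on the log2(TPM + 1) scale, with 95% confidence intervals from limma (n = 3 per group), in LSECs (left) and non-EC cells (right), where the 3 SOXF genes were below the filter on low values. The *Brg1-ECko* values (blue) lie below 0 for 9 of 10 genes in LSECs, and no point passes the adjusted threshold.

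Of the 26 other endothelial transcription factor genes, 1 passed the adjusted threshold in an LSEC comparison with control. *Gata2* was higher in *Brg1/Chd4-ECdko* LSECs, at 14.1, 17.5 and 19.0 TPM against 10.5, 8.49 and 7.49 TPM in controls (0.86 ± 0.18, adjusted p = 0.0409). It was also at 11.9, 15.9 and 12.7 TPM in *Chd4-ECko* LSECs (0.56, adjusted p = 0.304). Its non-EC libraries ranged from 14.9 to 39.7 TPM. Of all genes, 0.87% were called in the double mutant LSECs against control. Of 9 blood stem and progenitor markers tested there, 6 were above 0 (median 0.57) and 1 was called as lower. The part of such cells in the *Gata2* value was not tested. The median of the 26 genes was 0.26 in the double mutant beside -0.02 for the 10 members and 0.16 for all genes, -0.12 in *Chd4-ECko* and -0.07 in *Brg1-ECko*.

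In non-EC cells 7 of the 10 members passed the filter on low values. In *Brg1-ECko* non-EC cells 0 of 7 passed the adjusted threshold, against 11.7% of 12223 genes, and 1 had an unadjusted p under 0.05, against 28% of genes. This was *Tal1*, listed at 73.9, 106 and 93.1 TPM against 135, 162 and 126 TPM in controls, with no overlap, as for 39.9% of genes (log2 fold change -0.63, interval -1.06 to -0.21, adjusted p = 0.0574). The adjusted p was 0.0486 after quantile normalization, 0.0389 without mitochondrial genes, 0.0281 in a fit of these 2 groups alone and 0.0498 without *Brg1-ECko* non-EC replicate 2, and it ranged from 0.0229 to 0.193 over all alternatives. In the same order, these settings called 1756 of 12223, 1332 of 12303, 2069 of 11892 and 1233 of 12185 genes. In *Brg1/Chd4-ECdko* non-EC cells *Tal1* was listed at 90.96, 104 and 119 TPM (-0.43, interval -0.86 to -0.0048, adjusted p = 0.418), also with no overlap, as for 24% of genes, and it was the 1 member of 7 with an unadjusted p under 0.05 (11.7% of genes), where 0 of 7 passed the adjusted threshold and 0.581% of genes did. In *Chd4-ECko* non-EC cells it was listed at 84.1, 113 and 144 TPM (-0.34, adjusted p = 0.239), with overlap.

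Erythroid markers are given beside *Tal1*. Their summed level was 926 to 1352 TPM in *Brg1-ECko*, 1440 to 1670.0 TPM in *Brg1/Chd4-ECdko* and 1290.1 to 2125 TPM in *Chd4-ECko* non-EC cells against 1593 to 2591 TPM in controls. Of 11 markers 4 passed the test as lower in *Brg1-ECko* and 3 in *Chd4-ECko*, where 4 of 11 were above 0. In *Brg1/Chd4-ECdko* 0 passed by limma (1 at an unadjusted p under 0.05), and 0 of 11 were above 0. Of 12 hepatoblast markers 1 was higher in non-EC cells of the double mutant, 9 in those of *Chd4-ECko* and 11 in those of *Brg1-ECko*. Of all genes 0.581%, 9.48% and 11.7% were called in these comparisons, in the same order. Among the called genes 97.2%, 65.1% and 76.4% were higher. Across the 12 non-EC libraries *Tal1* followed the erythroid list, with Pearson's r = 0.916 and Spearman's rho = 0.923 (permutation test with 100000 resamples, p = 3e-05 and 4e-05, adjusted p = 0.0028 and 0.00408 over 102 relations). Without the 2 libraries farthest from the median of the list r was 0.828, and within genotypes it was 0.885. With the hepatoblast list r was -0.855 (rho = -0.811, permutation p = 0.00068 and 0.00254), -0.766 without 2 libraries and -0.842 within genotypes. The part of cell makeup in the *Tal1* difference was not tested.

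In *Chd4-ECko* non-EC cells 0 of 7 members passed the adjusted threshold, against 9.48% of genes, and 1 had an unadjusted p under 0.05, against 33.9% of genes. *Erg* was listed at 7.83, 5.06 and 3.31 TPM against 10.5, 7.85 and 9.76 TPM in controls (-0.75, interval -1.40 to -0.10, adjusted p = 0.103), with no overlap, as for 27.4% of genes. The 2 groups almost touch, and without *Chd4-ECko* non-EC replicate 1 the log2 fold change was -1.01 (adjusted p = 0.018). Without that library 4592 of 12180 genes were called, against 1159 of 12223 in the main fit. The adjusted p of *Erg* ranged from 0.018 to 0.344 over its alternatives. *Fli1* was listed at 22.1, 22.5 and 11.003 TPM against 34.5, 17.0 and 30.8 TPM (-0.55, adjusted p = 0.261). Of the 9 pan-endothelial genes tested in these libraries 3 were above 0 (median -0.20), and *Ramp2*, named after its value was seen, was called as higher (0.96, adjusted p = 0.0332 by limma). The summed level of the 15 listed genes was 72.2 to 89.4 TPM against 62.1 to 86.5 TPM in controls. Of the 10 megakaryocyte markers 0 were above 0 (median -0.22). The part of both cell types in the *Erg* and *Fli1* values was not tested.

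Whether the effect of a genotype is unequal in the 2 fractions was tested as an interaction, and 0 of 10 members passed in *Chd4-ECko* (1.02% of 13775 genes), *Brg1-ECko* (1.04%) or *Brg1/Chd4-ECdko* (0.0581%). At an unadjusted p under 0.05 there were 1, 3 and 1 members, against 19.1%, 17.9% and 7.57% of genes. *Tal1* was among them each time, with differences of 0.84 (adjusted p = 0.182), 0.77 (adjusted p = 0.219) and 0.84 (adjusted p = 0.499), LSEC effect minus non-EC effect. In *Brg1-ECko* the other 2 were *Sox18* (-0.81, adjusted p = 0.205) and *Sox7*, whose non-EC levels lie below the filter on low values. The *Sox7* value (-0.52) repeats its LSEC value (-0.54) and says nothing of the non-EC cells. This includes its call without *Brg1-ECko* LSEC replicate 3, where 325 of 13742 genes were called. The LSEC value of *Sox18* was smaller, at -0.30. Its non-EC libraries were listed at 0.939, 1.23 and 1.08 TPM in *Brg1-ECko* against 0.423, 0.824 and 0.198 TPM in controls, levels too low to test.

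How the 10 genes varied over the 12 LSEC libraries was described next, without regard to genotype. *Gata4* and *Erg* were the closest pair with r = 0.916, followed by *Gata4* with *Sox18* (0.899) and *Gata4* with *Sox7* (0.884). *Tal1* had an r between -0.19 and 0.30 with each of the other 9. *Tfec* was closest to *Maf* (0.744) and far from *Sox17* (0.168) and *Nr2f2* (0.179). The points of such a correlation share their library and its makeup. The same holds for the relations with marker lists below, whose p-values do not remove this limit. Between members, r is given as a description with no p.

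**Figure D4:**
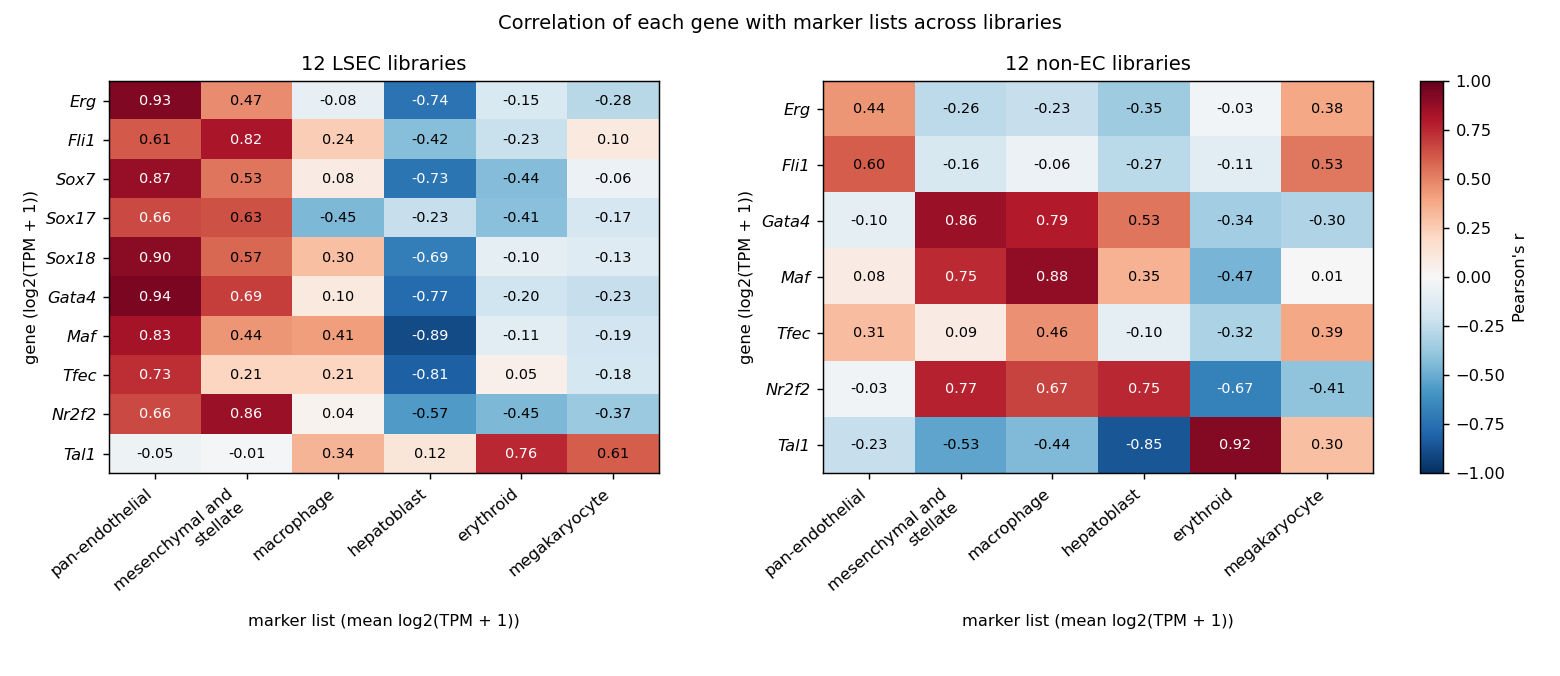
Pearson's r across 12 LSEC libraries (left) and 12 non-EC libraries (right) between log2(TPM + 1) of each factor gene (rows) and the mean log2(TPM + 1) of 6 marker lists (columns), red for positive and blue for negative. In LSECs 9 genes have an r of 0.61 or more with the pan-endothelial list and *Tal1* has -0.05.

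Each factor gene was then compared with 6 marker lists over the 12 LSEC libraries and, for the 7 that passed the filter, over the 12 non-EC libraries. Of these 102 relations, 19 had an adjusted p under 0.05 by the permutation test of r, 11 in LSECs and 8 in non-EC cells. Fewer passed by the permutation test of rho. With the pan-endothelial list *Gata4* had r = 0.943 (rho = 0.867, permutation p = 9e-05 and 0.00057, adjusted p = 0.0028 and 0.018), *Erg* 0.925, *Sox18* 0.900, *Sox7* 0.871, *Maf* 0.831 and *Tfec* 0.735. By the permutation test of rho, *Maf* (0.671, adjusted p = 0.111) and *Tfec* (0.552, adjusted p = 0.246) did not pass. Without *Brg1-ECko* replicate 1 and control replicate 2, the libraries farthest from the median, r was 0.854 for *Gata4* and 0.784 for *Erg* but 0.404 for *Tfec*, whose relation thus rests in part on those 2 libraries. Within genotypes the *Gata4* value was 0.926 and the *Erg* value 0.870.

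*Nr2f2* and *Fli1* followed the mesenchymal and stellate list. *Nr2f2* had r = 0.861 (rho = 0.671, permutation p = 0.00038 and 0.0204, adjusted p = 0.00554 and 0.111), and *Fli1* 0.818 (rho = 0.846, permutation p = 0.00132 and 0.00088, adjusted p = 0.0109 and 0.018). The values were 0.619 and 0.576 without the 2 farthest libraries and 0.867 and 0.816 within genotypes. With the pan-endothelial list *Nr2f2* had 0.659 (rho = 0.741), 0.389 without 2 libraries and 0.716 within genotypes, and *Fli1* had 0.611 (rho = 0.671), 0.585 and 0.825, so that for *Fli1* the lists were alike in the last 2 values. The difference between the lists was not tested. In non-EC cells *Gata4* also followed the mesenchymal list (0.865, 0.736 without 2 libraries and 0.873 within genotypes) and the macrophage list (0.792, 0.763 and 0.753). Its level in these 12 libraries was only 0.649 to 2.52 TPM, near the filter on low values, so both relations rest on small differences in TPM. *Nr2f2* had 0.771 with the mesenchymal list, but 0.390 without 2 libraries, and 0.752 with the hepatoblast list (rho = 0.762), 0.722 without 2 libraries and 0.843 within genotypes. *Maf* followed the macrophage list with r = 0.883 (rho = 0.776, permutation p = 8e-05 and 0.00433, adjusted p = 0.0028 and 0.0442), 0.736 without 2 libraries and 0.936 within genotypes. With the mesenchymal list *Maf* had 0.748 (rho = 0.455), but 0.121 without 2 libraries. MAF factors are known in macrophages.

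*Tfec* and *Maf* ran against the hepatoblast list in LSECs. *Tfec* had r = -0.815 (rho = -0.790, permutation p = 0.00096 and 0.00324, adjusted p = 0.0089 and 0.0367), -0.665 without the 2 farthest libraries and -0.780 within genotypes. *Maf* had r = -0.891 (rho = -0.748, permutation p = 0.00095 and 0.00699, adjusted p = 0.0089 and 0.0535), -0.851 and -0.870. The summed hepatoblast level was 5230.1 to 8274 TPM in *Brg1/Chd4-ECdko* and 6695 to 28743 TPM in *Brg1-ECko* LSECs, against 3604 to 7270 TPM in controls and 3728 to 5767 TPM in *Chd4-ECko*, so the 2 genotypes with low *Tfec* are also those with a higher range of hepatoblast RNA. Its part in the *Tfec* value was not tested. In LSECs *Tal1* again followed the erythroid list, with r = 0.755 (rho = 0.636, permutation p = 0.00452 and 0.0308, adjusted p = 0.0292 and 0.157), but 0.368 without the 2 farthest libraries.

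**Figure D5:**
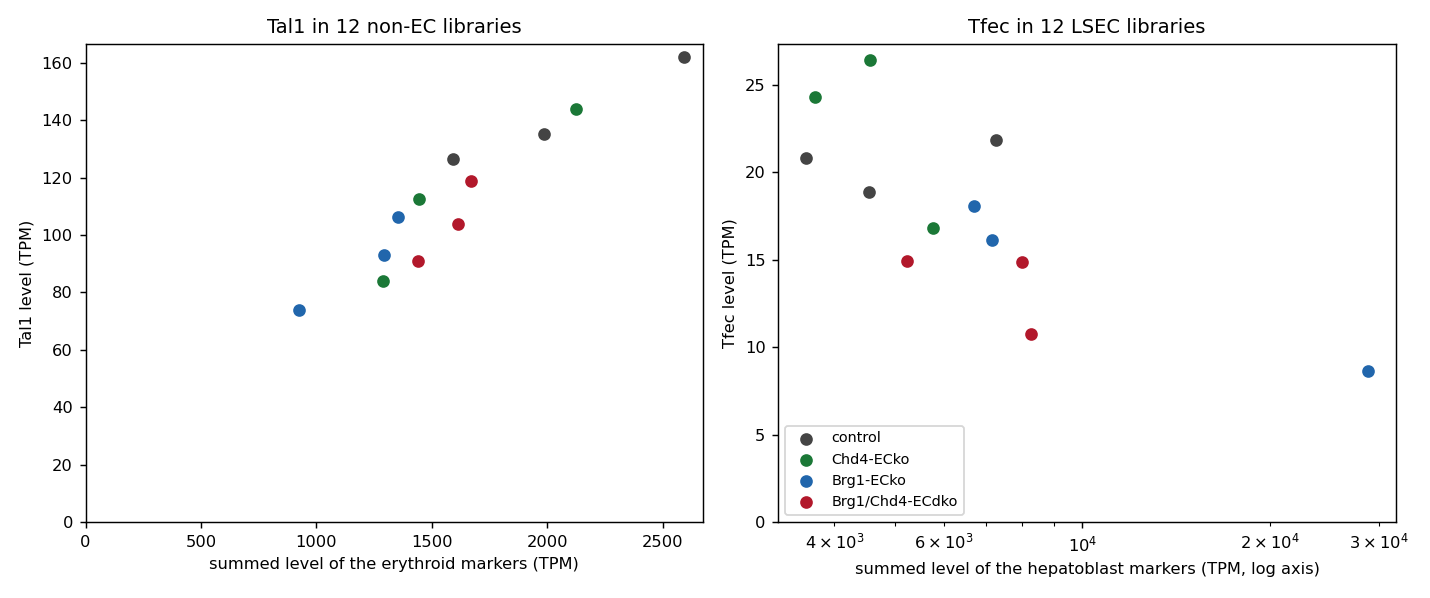
Left, *Tal1* level against the summed level of 11 erythroid markers in 12 non-EC libraries. Right, *Tfec* level against the summed level of 12 hepatoblast markers (log axis) in 12 LSEC libraries, where *Brg1-ECko* replicate 1 lies far to the right at 28743 TPM and 8.65 TPM of *Tfec*. Each point is 1 library, coloured by genotype, and all values are in TPM.

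The genes most like each member over the 12 LSEC libraries were sought among 10424 genes with a mean of at least 5 TPM, as a description. *Cdh5* was first for both *Gata4* (r = 0.969) and *Erg* (0.953), and the ETS gene *Elk3* second for both (0.959 and 0.948). *Sox7* was most like the VEGF receptor gene *Kdr* (0.925) and *Elk3* (0.923), and *Sox18* most like *Rcsd1* (0.946) and *Eng* (0.942), the endoglin gene. *Sox17* was most like *Camk2n2* (0.940) and *Tspan9* (0.908), *Fli1* most like *Tmx3* (0.958) and *Fam111a* (0.955), and *Maf* most like *Man1c1* (0.961) and *Adam15* (0.951). *Nr2f2* was most like *Cdh24* and *Hoxb4* (0.966 each), *Tfec* most like *S100a10* (0.962) and *Tubb2a* (0.958), and *Tal1* most like *Mafk* (0.957) and *Rrp9* (0.940).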

How the data were processed

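Polyadenylated RNA of CD146+ LSECs and of the remaining non-EC cells was measured in 24 libraries, 3 embryos per genotype in each of 2 fractions. The authors digested E12.5 livers with transcription inhibitors, lysed red blood cells, trimmed repeated guanines, aligned paired reads to GRCm39 (mm39 in the submitters' processing notes) with CLC Genomics Workbench and deposited a table of gene-level TPM. The annotation release and the use of strand are not given in the sources used here. Non-coding genes overlap 8 of the members in the GENCODE annotation (not *Sox7* or *Tfec*), so reads of such genes may be counted with them. The study gives a nominal depth, but TPM hold no depth of each library, so no counting interval or floor could be given. The 8 deposited columns of group means were not used.

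Differences were tested with limma 3.58.1 (R 4.3.3) on log2(TPM + 1), with a mean per genotype and variances moderated with a trend, after removing genes that reached 1 TPM in fewer than 3 of the libraries fitted. There were 13444 such genes in the fit of 12 LSEC libraries, 12223 in the fit of 12 non-EC libraries and 13775 in the fit of all 24. Benjamini-Hochberg adjustment covered all genes of a fit, and a call means an adjusted p under 0.05. The DEG threshold of the study adds a log2 fold change above 1. With 3 against 3 libraries an exact permutation test cannot go below p = 0.10 and was not used for calls. Replicates correlated at 0.962 to 0.993, no pair of libraries was identical, and the 3 libraries of a group are separate embryos. The sample titles and column headers name no batch.

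Within a genotype, LSEC and non-EC libraries that carry one number deviated together (12 pairs, mean r 0.27, lowest 0.124), so the numbers pair these fractions, the pairing coming from the labels' replicate numbers. Same-numbered libraries of different genotypes did not meet that rule (lowest r -0.0435 in LSECs and -0.315 in non-EC cells). On simulated data the LSEC fit of 13444 genes recovered 80% of 2-fold and 100% of 4-fold changes among 200 changed genes, with 11 false calls.

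The members and all gene lists were chosen with earlier results of these data known. The text names all 10 members, up to 4 genes of other lists by level (those of other cell types by level over all libraries) and up to 3 by p among those called, and for each member the 2 most correlated genes. The lists hold 26 other endothelial transcription factors and markers of endothelial, hepatoblast, erythroid, megakaryocyte, macrophage, mesenchymal, mesothelial and progenitor cells. Correlations with lists were tested by permutation with 100000 resamples in numpy 2.4.6 (python 3.11.15). Alternatives were a pseudocount of 0.1 TPM, other filters on low values, quantile normalization, no trend, no mitochondrial genes, the replicate block, values relative to pan-endothelial genes, fits of 2 groups alone and each library left out. Removal of globin genes and values relative to mesenchymal markers were added after seeing the data.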

Additional observations from a re-analysis of the deposited data

How the results depend on the processing

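The 10 calls between control LSECs and control non-EC cells kept their direction and their side of the threshold under every alternative run, except that *Sox17* was not tested with a mean of at least 5 TPM (9 calls), with the *Fli1* log2 fold change between 0.72 and 1.29. Among them, the calls of the SOXF genes follow from the filter on low values in the main fit. The count of 0 members in the LSEC genotype comparisons held under every alternative, whose all-gene counts varied widely (95 called genes in *Chd4-ECko*, 28 relative to mesenchymal markers and 148 in a fit of 2 groups; 117 in the double mutant, 23 and 313 likewise; 3 in *Brg1-ECko*, 0 with no filter and 11 with the replicate block; 5 and 13 for the double mutant against each single mutant, 2 to 69 and 3 to 35). In non-EC cells the counts were 1159, 1426 and 71 against 165 to 1910, 1248 to 2069 and 27 to 301. Leaving out 1 library moved these all-gene counts to 29 to 191, 24 to 281 and 0 to 8 in *Chd4-ECko*, double mutant and *Brg1-ECko* LSECs, to 359 to 4592, 568 to 1233 and 0 to 14 in non-EC cells of *Chd4-ECko*, *Brg1-ECko* and the double mutant, to 16 to 1913, 49 to 325 and 0 to 33 (from 140, 143 and 8) for the effects of these genotypes between fractions, and to 0 to 11 and 4 to 31 for the double mutant against *Chd4-ECko* and *Brg1-ECko* LSECs, and the shares of all genes printed beside the members vary with these counts. In *Brg1-ECko* LSECs against control, *Maf* turned to 0.075, *Gata4* to 0.045 and *Erg* to 0.011 relative to pan-endothelial genes. In *Brg1-ECko* non-EC cells the count of members called was 1 (*Tal1*) instead of 0 after quantile normalization, without mitochondrial genes, without mitochondrial and globin genes, in a fit of the 2 groups and with the replicate block (adjusted p = 0.0229 by limma). The replicate block, of numbers or of LSEC and non-EC pairs, changed no other call of a member. Leaving out 1 library gave 0 to 1 members in non-EC cells of *Brg1-ECko* (without its replicate 2), in *Chd4-ECko* non-EC cells (*Erg*, without its replicate 1) and in the *Brg1-ECko* effect between fractions (*Sox7*, without LSEC replicate 3, a gene with too little non-EC signal for this comparison), and the main count in every other comparison. The cause of these changes was not tested. In *Brg1/Chd4-ECdko* LSECs against control, quantile normalization moved the median of all genes from 0.16 to -0.0035 and the share of called genes that were higher from 86.3% to 63.5%, with each member uncalled. The depth of each library is not known, which limits what can be said of *Sox7* and *Sox17* in non-EC cells.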

Other observations

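Beside *Gata2*, 3 genes of the fixed lists passed the adjusted threshold of limma in an LSEC comparison with control. *Mecom*, a zinc finger factor of blood stem cells and endothelium, was lower in *Brg1/Chd4-ECdko* LSECs at 7.42, 7.11 and 8.22 TPM against 14.4, 17.4 and 12.5 TPM in controls (log2 fold change -0.87 ± 0.18, adjusted p = 0.0409). It was at 5.85, 5.23 and 8.39 TPM in *Brg1-ECko* LSECs (-1.08, adjusted p = 0.0823). The *Chd4-ECko* LSECs had 10.045, 7.94 and 8.77 TPM (-0.66, adjusted p = 0.162). Each mutant library was below each control library. Such a lack of overlap with control held for 23.1% of genes for the double mutant, 14.6% for *Brg1-ECko* and 12.3% for *Chd4-ECko*. These 3 comparisons share the control libraries. *Mecom* did not exceed 1.24 TPM in non-EC cells. *Ly6a*, which encodes the surface antigen Sca-1, was lower in *Chd4-ECko* LSECs at 2.55, 2.62 and 1.24 TPM against 6.38, 7.92 and 8.46 TPM in controls (-1.48, adjusted p = 0.0296) and in *Brg1/Chd4-ECdko* LSECs at 1.90, 1.04 and 3.33 TPM (-1.53, adjusted p = 0.0186). *Fcer1g*, a receptor subunit of macrophages and other myeloid cells, was higher in *Chd4-ECko* LSECs at 77.5, 122 and 125 TPM against 47.0, 38.8 and 60.4 TPM (1.12, adjusted p = 0.035).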
